A study of Arabidopsis thaliana with 10 samples.

Results

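The 4 libraries of the lines with altered UBP12 and UBP13, UBP13oe and ubp12ubp13, were set together against the 6 libraries of WT, cry2-1 and CRY2oe, called the rest, out of 10 libraries in all. The comparison asks which RNAs moved the same way in a line named for extra UBP13 and in a line named for loss of UBP12 and UBP13. The libraries were taken by their titles alone. The series title names UBP12 and UBP13 as deubiquitinases that act on the blue-light receptor CRY2 and on growth. All seedlings were Arabidopsis thaliana of the Columbia ecotype, harvested whole at an age of 4 days, after growth under constant blue light (1 µmol m-2 s-1). UBP13oe is the UBP13 overexpressor, ubp12ubp13 the line mutated in both genes, WT is Col-0, cry2-1 is the CRY2 mutant and CRY2oe the CRY2 overexpressor. Each genotype had 2 biological replicates. The promoters of the overexpression transgenes, the mutant alleles of UBP12 and UBP13 and the number of independent lines are not given in the sources used here, so each genotype may stand for 1 line.

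Values are the deposited FPKM, that is, fragments per unit of transcript length after scaling to library depth. UBP13 stood at 69.0 and 66.1 FPKM in UBP13oe and at 24.2 and 23.6 FPKM in ubp12ubp13, against 27.1 and 28.3 FPKM in WT, 36.9 and 36.04 FPKM in cry2-1 and 32.5 and 34.3 FPKM in CRY2oe. UBP13 was highest in its overexpressor and lowest, though still present, in the mutant. UBP12 stood at 44.4 and 46.6 FPKM in UBP13oe and at 397 FPKM in replicate 1 of ubp12ubp13, where replicate 2 has a failed estimate, against 33.2 to 48.2 FPKM in the other 6. The level over the whole locus thus goes against the name of that line, which is called here by its label, and it does not show whether a functional protein is made. CRY2 lay between 84.0 and 96.5 FPKM in the UBP lines, against 110 and 120 FPKM in WT, 0 and 0.0187 FPKM in cry2-1 and 3923 and 3808 FPKM in CRY2oe. Depth, read from the steps of low FPKM values, ran from 15.64 to 30.94 M fragments per library. Replicates correlated at 0.983 to 0.989 and libraries of different genotypes at 0.929 to 0.975 over the 19957 genes that reached 1 FPKM in 2 or more libraries. Plastid genes took 9.06 to 9.58% of the FPKM in UBP13oe and 15.4 to 16.2% in the libraries labelled ubp12ubp13, against 8.57 to 11.2% in WT, 16.9 to 17.6% in cry2-1 and 17.9 to 18.0% in CRY2oe. In whole seedlings, fewer cells of a type and less RNA per cell cannot be told apart.

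Deubiquitinases of the ubiquitin-specific protease family cut ubiquitin from proteins and thereby change their stability or activity, and UBP12 and UBP13 are a closely related pair in Arabidopsis. Cryptochromes absorb blue light, restrain stem elongation in the seedling, and are themselves removed through ubiquitination. Several gene groups recur below. IRT1 and FRO2 form the iron uptake system of the root epidermis, FRO4, FRO5 and COPT2 serve copper uptake, glucosinolates are defence compounds that myrosinases split on wounding, and the dark-inducible genes are switched on when seedlings run short of sugar.

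The 300 bases before the RefSeq start of 6 genes are shown, in the TAIR10.1 assembly and 5′ to 3′ on the gene's own strand. IRT1 is shown because it had the largest common shift of all genes, and the other 5 because they are the genes among the 14 lower ones named below whose window holds a G-box (CACGTG) or an ABRE core (ACGTGTC). That choice was made after the motif shares given further below were seen. Capitals mark matches on either strand to the G-box, the ABRE core, site II (TGGGCC) or the TATA box (TATAAA), and none of these windows overlaps another annotated gene. Only these of the 10 motifs searched occur in them.
IRT1, chr4:10707044-10707343, plus strand: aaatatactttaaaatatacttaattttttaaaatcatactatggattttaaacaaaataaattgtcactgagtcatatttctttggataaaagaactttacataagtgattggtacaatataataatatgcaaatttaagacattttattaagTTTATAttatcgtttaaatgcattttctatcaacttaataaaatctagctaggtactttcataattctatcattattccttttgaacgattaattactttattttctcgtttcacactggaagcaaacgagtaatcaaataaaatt
AT4G25580, chr4:13055883-13056182, plus strand: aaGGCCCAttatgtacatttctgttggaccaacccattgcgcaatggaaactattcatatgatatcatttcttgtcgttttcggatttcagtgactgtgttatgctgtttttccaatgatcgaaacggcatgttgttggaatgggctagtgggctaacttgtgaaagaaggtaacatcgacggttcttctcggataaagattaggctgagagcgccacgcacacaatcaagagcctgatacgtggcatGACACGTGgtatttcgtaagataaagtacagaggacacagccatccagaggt
BCAT-2, chr1:3287787-3288086, plus strand: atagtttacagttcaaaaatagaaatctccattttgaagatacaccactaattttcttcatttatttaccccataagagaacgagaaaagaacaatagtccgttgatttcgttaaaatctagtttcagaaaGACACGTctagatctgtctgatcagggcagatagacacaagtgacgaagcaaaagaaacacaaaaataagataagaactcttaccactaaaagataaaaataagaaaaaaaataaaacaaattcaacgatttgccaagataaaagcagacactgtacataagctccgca
AT5G39520, chr5:15825567-15825866, minus strand: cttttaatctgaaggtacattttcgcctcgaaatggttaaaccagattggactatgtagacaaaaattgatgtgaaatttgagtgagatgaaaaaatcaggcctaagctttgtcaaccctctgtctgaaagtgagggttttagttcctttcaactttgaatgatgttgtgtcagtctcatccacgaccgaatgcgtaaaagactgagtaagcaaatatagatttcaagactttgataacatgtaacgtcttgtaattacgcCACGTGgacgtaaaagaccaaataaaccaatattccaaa
NAP, chr1:26121780-26122079, plus strand: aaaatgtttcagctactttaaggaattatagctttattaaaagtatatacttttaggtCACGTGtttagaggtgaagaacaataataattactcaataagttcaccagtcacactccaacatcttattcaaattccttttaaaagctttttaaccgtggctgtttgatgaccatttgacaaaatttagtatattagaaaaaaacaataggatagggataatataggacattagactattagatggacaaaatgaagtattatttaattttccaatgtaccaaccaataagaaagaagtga
THA1, chr1:2747968-2748267, minus strand: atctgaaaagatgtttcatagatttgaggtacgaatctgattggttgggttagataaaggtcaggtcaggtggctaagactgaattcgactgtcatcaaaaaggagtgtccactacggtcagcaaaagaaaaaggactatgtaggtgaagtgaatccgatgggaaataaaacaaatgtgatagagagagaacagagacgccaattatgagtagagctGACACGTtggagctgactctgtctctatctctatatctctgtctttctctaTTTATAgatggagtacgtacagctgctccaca
The G-box of AT4G25580 begins 50 bases before the start and overlaps its ABRE core, which begins at 52. The G-box begins 39 bases before the start in AT5G39520 and 242 before it in NAP, and the ABRE core 169 bases before it in BCAT-2 and 83 in THA1. A match is a description of letters only.

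Both lines shared a small set of changes. A gene was called shared when UBP13oe and the libraries labelled ubp12ubp13 each differed from each of WT, cry2-1 and CRY2oe in 1 direction, by the largest of the 6 p-values of a limma fit on log2(FPKM + 1) with Benjamini-Hochberg adjustment over 19954 genes at 0.05. By this rule 184 genes were higher (0.922% of those tested) and 134 were lower (0.672%) in both lines. In all 318 of them the 4 UBP-line libraries lay beyond all 6 others. Among 19947 genes with a value in every library this held for 1646 genes above (8.25%) and 859 below (4.31%). The shared rule selects for such separation, here and in the shared genes named below, so it adds no support to a call. The common shift, the smallest of the 6 differences, had a median of 0.46 on the log2(FPKM + 1) scale among the shared higher genes and -0.55 among the lower ones, and it passed 1 in size in 19 genes higher and 18 lower. On this scale the change of genes with low FPKM is understated.

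The shared changes were of unequal size in the 2 lines. Of the 318 shared genes, 264 stood further from the rest in the libraries labelled ubp12ubp13 than in UBP13oe, namely 149 of the higher and 115 of the lower ones. The same count was not made over all tested genes, so it is a description and not a trait particular to the shared genes. The difference between the lines was called by the same limma fit in 211 of the 318 (66.4%), against 10560 of all tested genes (52.9%), where UBP13oe was higher in 6403 genes (32.1%) and lower in 4157 (20.8%). Both differences from the rest use the same 6 libraries, so their resemblance over genes is not given as a result. The median of all genes was 0.06 in the pooled difference, and it was 0.005 after rescaling each library by its median ratio and 0.035 with nuclear genes alone. The split of shared calls moved with this scaling to 91 higher and 190 lower after rescaling and to 129 higher and 211 lower with nuclear genes alone, and 81 of the higher and 131 of the lower genes were shared under all 3 scalings.

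**Figure D1:**
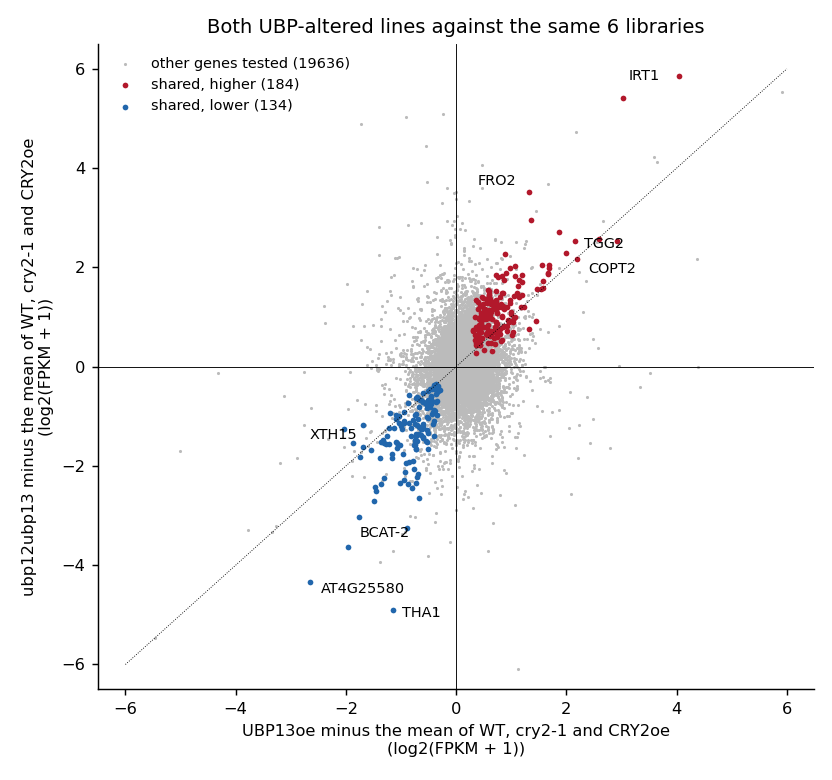
Each point is a gene, with the difference of UBP13oe from the mean of WT, cry2-1 and CRY2oe on the x axis and that of the libraries labelled ubp12ubp13 on the y axis, both on the log2(FPKM + 1) scale; both axes share the same 6 libraries. The 184 shared higher genes are red, the 134 shared lower genes blue and the other 19636 tested genes grey, and most shared genes lie further from 0 on the y axis than on the x axis, with the dotted line marking equal values.

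The number of shared calls rested on single libraries. Without UBP13oe replicate 2 the limma fit called 16 genes higher and 33 lower, and without UBP13oe replicate 1 it called 68 of each. Without replicate 1 or 2 of CRY2oe it called 54 or 63 higher and 63 or 71 lower, and without replicate 1 or 2 of cry2-1 77 or 67 higher and 79 or 70 lower. Without replicate 1 or 2 of ubp12ubp13 it called 105 or 100 higher and 100 or 106 lower, and without replicate 1 or 2 of WT 146 or 144 higher and 142 or 109 lower. A genotype with 1 library left is assumed in these fits to vary like the others. In all 10 fits with 1 library left out, 48 genes stayed shared, 15 of them higher and 33 lower.

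**Figure D2:**
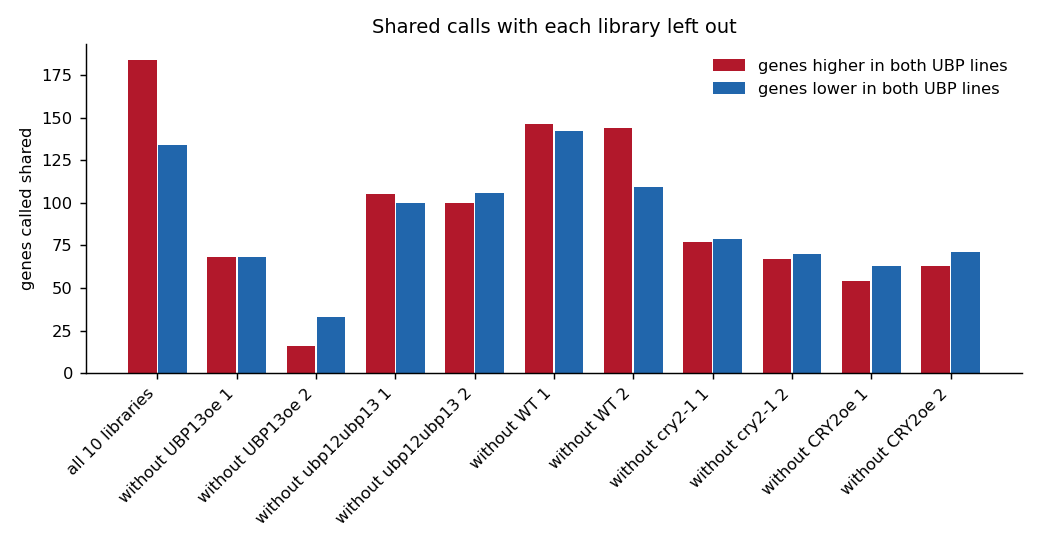
Bars give the number of genes called shared, higher in red and lower in blue, with all 10 libraries and with each library left out in turn. The counts are lowest without UBP13oe replicate 2, at 16 higher and 33 lower, against 184 and 134 with all libraries.

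The iron uptake genes IRT1 and FRO2 and the genes COPT2, FRO5 and FRO4 stood among the shared higher genes with the largest common shifts, and no list of copper genes was counted. IRT1, the root importer of ferrous iron (chromosome 4, 10707426 to 10709015, TAIR10), was at 12.4 and 21.4 FPKM in UBP13oe and 64.8 and 55.6 FPKM in the libraries labelled ubp12ubp13, against 0.183 and 0.151 FPKM in WT and 0 in the libraries of cry2-1 and CRY2oe. All 4 UBP-line libraries were thus far above the rest, where the gene was near or at 0, and those labelled ubp12ubp13 were the highest. The pooled difference of IRT1 was 4.95 ± 0.132 (SE) and its common shift 3.89 on the log2(FPKM + 1) scale (limma, adjusted p of the shared call 0.000326), and it was called in all 10 fits with 1 library left out. FRO2, the ferric chelate reductase that supplies IRT1 (chromosome 1, 209395 to 213041), was at 1.97 and 3.92 FPKM in UBP13oe and 17.1 and 16.0 FPKM in the libraries labelled ubp12ubp13, against 0.481 and 0.418 FPKM in WT, 0.470 and 0.488 FPKM in cry2-1 and 0.712 and 0.686 FPKM in CRY2oe. The groups did not overlap, but UBP13oe was closer to the rest than to the other UBP line. The common shift of FRO2 was 1.17 (limma, adjusted p 0.0313), and the call held in 1 of the 10 fits, with a largest adjusted p of 0.171.

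COPT2, a copper importer of the plasma membrane (chromosome 3, 17268875 to 17269510), was at 37.3 and 38.5 FPKM in UBP13oe and 34.7 and 40.5 FPKM in the libraries labelled ubp12ubp13, against 13.2 and 9.98 FPKM in WT, 7.08 and 5.73 FPKM in cry2-1 and 5.53 and 5.88 FPKM in CRY2oe. The values of the 2 UBP lines overlapped each other, and the lowest of their libraries was above every library of the rest. The pooled difference of COPT2 was 2.19 ± 0.086 (SE) and the difference between the lines 0.02 ± 0.134 (SE) (limma, adjusted p of the shared call 0.00154 and of the difference 0.934), and the shared call held in all 10 fits. FRO5, a metal reductase linked to copper uptake, lay between 14.7 and 22.4 FPKM in the UBP lines, against 0.782 to 4.31 FPKM in the rest, and its neighbour FRO4 between 5.33 and 7.14 FPKM, against 0.393 to 2.12 FPKM. The shared calls of FRO5 and FRO4 (limma, adjusted p 0.0124 and 0.0137) held in 6 and 8 of the 10 fits. FRO4 and FRO5 are adjacent relatives among which reads may be divided unevenly.

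**Figure D3:**
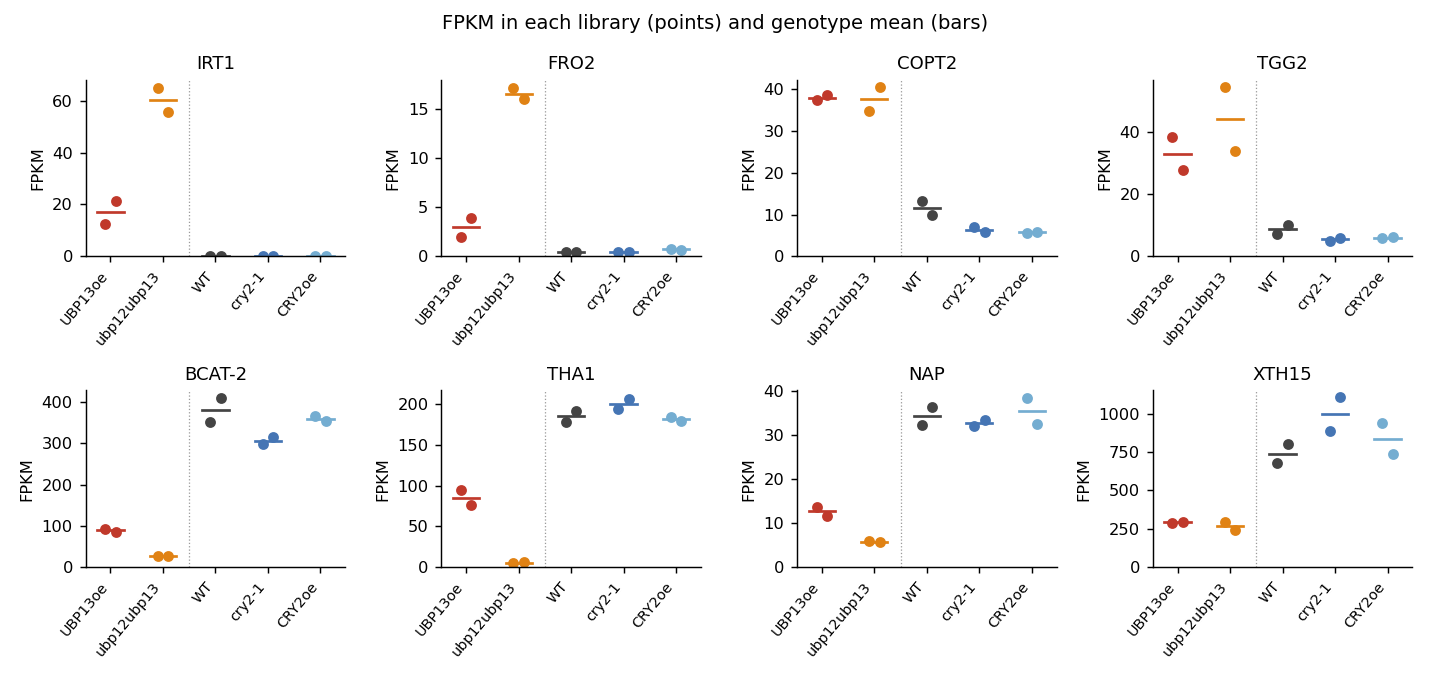
Points are the FPKM of each library and bars the mean of each genotype (n = 2), for IRT1, FRO2, COPT2 and TGG2, which were shared higher, and for BCAT-2, THA1, NAP and XTH15, which were shared lower. UBP13oe and ubp12ubp13 stand left of the dotted line and WT, cry2-1 and CRY2oe right of it, and in each panel the 4 points on the left lie beyond the 6 on the right.

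Of 32 tested genes of the list for iron, phosphate, sulfate and nitrate, 5 were shared higher and 0 shared lower, against 0.922% and 0.672% of all genes, and 10 lay apart above and 2 apart below, against 8.25% and 4.31%. The list's median pooled difference was 0.27, against 0.06 for all genes, with 0.33 in UBP13oe and 0.30 in the libraries labelled ubp12ubp13. Beside IRT1 and FRO2 the shared genes were bHLH38, a regulator of iron uptake, and NAS1 and NAS4, which make the metal chelator nicotianamine. NAS1 was at 12.5 and 12.1 FPKM in UBP13oe and 13.98 and 12.7 FPKM in the libraries labelled ubp12ubp13, against 4.26 to 7.62 FPKM in the rest. bHLH38 lay between 1.60 and 4.12 FPKM in the UBP lines, against 0.255 to 0.525 FPKM in the rest, and its call held in 4 of the 10 fits. FER1, which encodes the iron store ferritin, was at 170 and 113 FPKM in UBP13oe and 147 and 184 FPKM in the libraries labelled ubp12ubp13, against 275 to 564 FPKM in the rest, and did not pass the shared rule (limma, adjusted p 0.118).

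The genes of this list outside iron were mixed. The nitrate reductase gene NIA1 was at 134 to 156 FPKM in the UBP lines, against 172 to 407 FPKM in the rest, with groups that did not overlap and a shared adjusted p of 0.247 (limma). The phosphate importer PHT1;1 and the sulfate importer SULTR1;2 were higher in UBP13oe than in the libraries labelled ubp12ubp13 (limma, adjusted p 4.53e-05 and 0.000118). PHT1;1 was at 74.9 and 77.6 FPKM in UBP13oe and 18.2 and 21.1 FPKM in the libraries labelled ubp12ubp13, against 27.7 to 50.8 FPKM in the rest. The count of 5 shared genes fell to 1 without UBP13oe replicate 2, to 2 without cry2-1 replicate 2, CRY2oe replicate 2 or ubp12ubp13 replicate 1, and to 3 without cry2-1 replicate 1, CRY2oe replicate 1 or either replicate of WT. Of 9 tested root hair markers 7 were pooled higher by limma, against 32.7% of all genes, with 0 shared, 0 passing that rule unadjusted and 0 apart. Their summed level was 52.6 to 75.5 FPKM in the UBP lines, against 29.6 to 59.9 FPKM in the rest, and the groups overlapped. The part of root hair cells in the iron result was not tested.

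**Figure D4:**
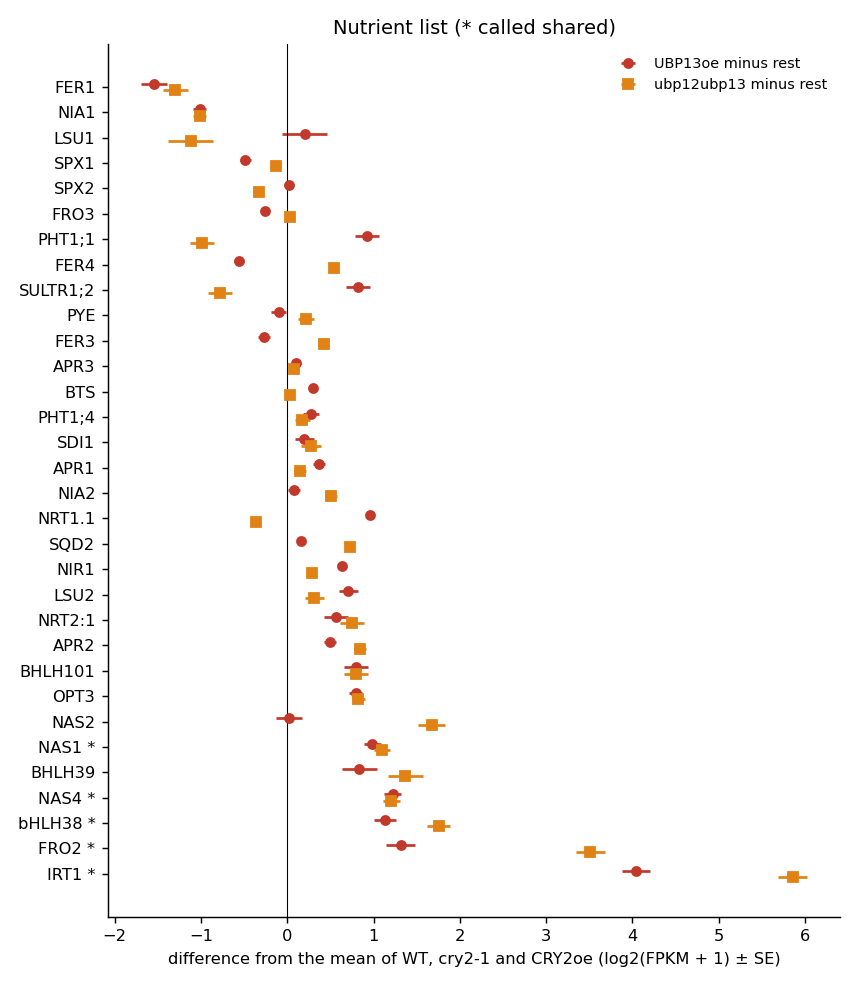
Points give the difference of UBP13oe (red circles) and of the libraries labelled ubp12ubp13 (orange squares) from the mean of WT, cry2-1 and CRY2oe for the 32 tested nutrient genes, on the log2(FPKM + 1) scale with standard errors. The 5 genes marked with an asterisk were called shared, and for PHT1;1 and SULTR1;2 the points lie on opposite sides of 0.

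Genes of glucosinolate breakdown and transport were also among the shared higher genes. TGG2, a myrosinase (chromosome 5, 9072727 to 9075690), was at 38.3 and 27.8 FPKM in UBP13oe and 54.4 and 33.9 FPKM in the libraries labelled ubp12ubp13, against 7.29 and 10.2 FPKM in WT, 5.04 and 5.85 FPKM in cry2-1 and 5.98 and 6.12 FPKM in CRY2oe. The groups did not overlap, and the pooled difference was 2.34 ± 0.152 (SE) (limma, adjusted p of the shared call 0.0105, called in 8 of the 10 fits). ESM1, which favours isothiocyanates among the breakdown products, was at 21.1 FPKM in both replicates of UBP13oe and 38.7 and 38.8 FPKM in the libraries labelled ubp12ubp13, against 2.98 to 10.01 FPKM in the rest, and its call held in 3 of the 10 fits (limma, adjusted p 0.0221, largest 0.17). MYB28, the regulator of aliphatic glucosinolate synthesis, was at 7.64 and 9.26 FPKM in UBP13oe and 13.3 and 11.4 FPKM in the libraries labelled ubp12ubp13, against 2.57 to 4.06 FPKM in the rest. The transporter gene GTR1 was the other shared higher gene of the list, and the nitrile-specifier gene NSP5 was shared lower, at 133 to 209 FPKM in the UBP lines, against 342 to 533 FPKM in the rest.

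Of 20 tested glucosinolate genes 4 were shared higher and 1 lower, against 0.922% and 0.672% of all genes, and 7 lay apart above and 2 below, against 8.25% and 4.31%. The list's median pooled difference was 0.24. TGG1, the more abundant myrosinase, did not follow TGG2: it was at 781 and 814 FPKM in UBP13oe and 628 and 594 FPKM in the libraries labelled ubp12ubp13, against 605 to 1088 FPKM in the rest, and the groups overlapped. TGG1 and TGG2 are close relatives that may share reads. Without UBP13oe replicate 2 the list held 0 shared higher genes, and without UBP13oe replicate 1 or CRY2oe replicate 1 it held 2. BGLU18, a beta-glucosidase of the endoplasmic reticulum body that releases abscisic acid from its glucose ester, was at 3.93 to 9.15 FPKM in the UBP lines, against 0.597 to 0.910 FPKM in the rest (limma, adjusted p 0.0167, called in 3 of the 10 fits).

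The jasmonate synthesis genes LOX2 and AOS and the regulator MYC4 were shared higher. LOX2, the lipoxygenase that starts the pathway in leaves, was at 0.953 and 1.77 FPKM in UBP13oe and 1.59 and 2.02 FPKM in the libraries labelled ubp12ubp13, against 0.0269 to 0.111 FPKM in the rest. AOS, which takes the next step, was at 27.8 and 31.1 FPKM in UBP13oe and 36.3 and 31.2 FPKM in the libraries labelled ubp12ubp13, against 14.04 to 18.3 FPKM in the rest. MYC4, a transcription factor of the jasmonate response, was at 15.5 to 17.6 FPKM in the UBP lines, against 9.21 to 12.0 FPKM in the rest. None of these groups overlapped, and all 3 genes passed the shared rule (limma, adjusted p 0.0233, 0.00711 and 0.03). The calls of LOX2 and MYC4 held in 2 of the 10 fits each and that of AOS in 8, and MYC4 lost its call after rescaling by the median ratio, so that the list then held 2. They were the shared members among 24 tested jasmonate genes, against 0.922% of all genes shared higher. Of the list 8 genes lay apart above and 0 below, against 8.25% and 4.31% of all genes, with a median pooled difference of 0.28. MYC2, which UBP12 and UBP13 are reported to stabilise, was at 31.5 and 32.6 FPKM in UBP13oe and 23.6 and 27.5 FPKM in the libraries labelled ubp12ubp13, against 22.0 to 31.5 FPKM in the rest, with overlapping groups and a pooled difference of 0.08 ± 0.051 (SE). The 3 shared calls fell to 0 without UBP13oe replicate 2 or CRY2oe replicate 2, and to 1 without CRY2oe replicate 1, WT replicate 1, ubp12ubp13 replicate 2 or either replicate of cry2-1.

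The remaining genes among the 14 higher ones with the largest common shift are less well described. AT1G52000, annotated as a mannose-binding lectin family protein, was at 12.1 and 21.6 FPKM in UBP13oe and 18.0 and 14.3 FPKM in the libraries labelled ubp12ubp13, against 1.57 to 2.52 FPKM in the rest, and was called in all 10 fits. AT1G60590, a pectin lyase-like gene, was at 21.9 and 18.8 FPKM in UBP13oe and 20.7 and 26.5 FPKM in the libraries labelled ubp12ubp13, against 4.02 to 7.61 FPKM in the rest, and was also called in all 10. AT4G15620, of the uncharacterised family UPF0497, was at 52.2 to 57.7 FPKM in the UBP lines, against 15.2 to 25.1 FPKM in the rest. PP2-A8, of the phloem protein 2 family, was at 10.8 to 12.5 FPKM in the UBP lines, against 2.46 to 4.64 FPKM in the rest. In these 4 genes the values of the 2 UBP lines overlapped each other, and the largest difference between them, that of AT1G60590, was -0.20 ± 0.131 (SE; limma, adjusted p 0.235). AT2G22942 and the non-coding RNA AT4G04223, called in 5 and 2 of the 10 fits, differed between the lines: AT2G22942 was at 10.9 and 24.9 FPKM in UBP13oe and 73.0 and 112 FPKM in the libraries labelled ubp12ubp13, against 0.285 to 3.52 FPKM in the rest.

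The shared lower genes included 8 of the senescence and sugar starvation list, several of which break down amino acids. BCAT-2, a mitochondrial aminotransferase of branched-chain amino acid breakdown (chromosome 1, 3288087 to 3290471), was at 93.4 and 84.3 FPKM in UBP13oe and 25.9 and 27.9 FPKM in the libraries labelled ubp12ubp13, against 351 and 409 FPKM in WT, 298 and 315 FPKM in cry2-1 and 366 and 354 FPKM in CRY2oe. Every UBP-line library was below every other, and those labelled ubp12ubp13 were the lowest. The pooled difference was -2.80 ± 0.052 (SE) and the common shift -1.78 (limma, adjusted p 0.000314), called in all 10 fits, although the locus overlaps 1 other gene. THA1, the threonine aldolase (chromosome 1, 2743761 to 2747967), was at 94.3 and 76.4 FPKM in UBP13oe and 4.59 and 6.29 FPKM in the libraries labelled ubp12ubp13, against 179 and 192 FPKM in WT, 194 and 207 FPKM in cry2-1 and 185 and 180 FPKM in CRY2oe. The rest was tightly grouped, UBP13oe stood below it, and the libraries labelled ubp12ubp13 were near the bottom of the scale. The difference between the lines was 3.75 ± 0.13 (SE) for THA1 (limma, adjusted p 1.6e-06), and the shared call (adjusted p 0.00634) was lost without UBP13oe replicate 2 or CRY2oe replicate 1.

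NAP, a NAC transcription factor that promotes leaf senescence (chromosome 1, 26122139 to 26123421), was at 13.7 and 11.5 FPKM in UBP13oe and 5.88 and 5.66 FPKM in the libraries labelled ubp12ubp13, against 32.2 and 36.2 FPKM in WT, 31.9 and 33.5 FPKM in cry2-1 and 38.4 and 32.5 FPKM in CRY2oe. The groups did not overlap. Its common shift was -1.31 (limma, adjusted p 0.00121, called in all 10 fits). DIN6, an asparagine synthetase, was at 392.4 and 352 FPKM in UBP13oe and 190 and 197 FPKM in the libraries labelled ubp12ubp13, against 690 to 1105 FPKM in the rest. DIN4, a subunit of the branched-chain keto acid dehydrogenase, was at 91.5 and 92.4 FPKM in UBP13oe and 59.4 FPKM in both libraries labelled ubp12ubp13, against 129 to 185 FPKM in the rest. DIN6 and DIN4 were called in all 10 fits.

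Of 18 tested genes of the senescence and sugar starvation list 8 were shared lower and 0 shared higher, against 0.672% and 0.922% of all genes, and 14 lay apart below, against 4.31%. This list, like the others, was chosen with earlier results of these data known, so its counts are a description. The list's median pooled difference was -0.91, with -0.51 in UBP13oe and -1.37 in the libraries labelled ubp12ubp13, against 0.06 for all genes. The other shared members were PPDK, pyruvate orthophosphate dikinase, and TPS8 and TPS11 of the trehalose phosphate synthase family. The beta-glucosidase gene DIN2 was not shared: it was at 61.7 and 69.4 FPKM in UBP13oe and 9.10 and 14.5 FPKM in the libraries labelled ubp12ubp13, against 85.1 to 207 FPKM in the rest, with an adjusted p of 0.597 for the shared rule (limma). WRKY6 and WRKY22 passed neither rule, with pooled differences of 0.03 ± 0.047 and 0.00 ± 0.049 (SE). The 8 shared calls became 4 without UBP13oe replicate 2 and 5 without CRY2oe replicate 1, and 10 after rescaling by the median ratio.

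**Figure D5:**
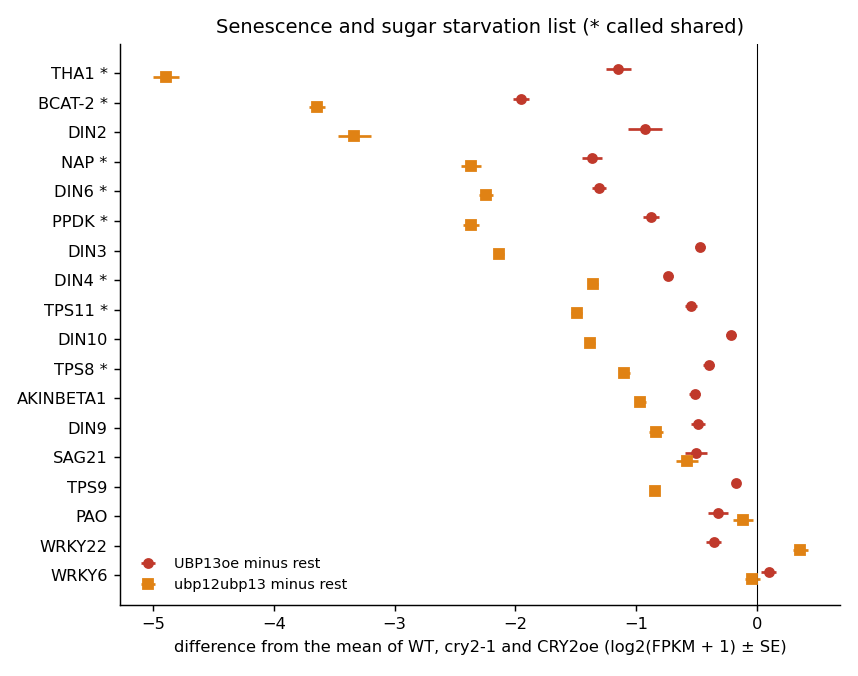
Points give the difference of UBP13oe (red circles) and of the libraries labelled ubp12ubp13 (orange squares) from the mean of WT, cry2-1 and CRY2oe for the 18 tested genes of the senescence and sugar starvation list, on the log2(FPKM + 1) scale with standard errors. The 8 genes marked with an asterisk were called shared, and in all of these the square lies further below 0 than the circle.

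Other lower genes had the largest common shifts outside that list. AT4G25580, annotated as a CAP160 protein and carrying the overlapping G-box and ABRE core shown above (chromosome 4, 13056184 to 13058802), was at 15.5 and 10.3 FPKM in UBP13oe and 3.79 and 2.75 FPKM in the libraries labelled ubp12ubp13, against 80.0 and 101 FPKM in WT, 86.6 and 103 FPKM in cry2-1 and 71.3 and 73.3 FPKM in CRY2oe. The 2 groups were far apart, and the line labelled ubp12ubp13 was again lowest. Its pooled difference was -3.50 ± 0.126 (SE) and its common shift -2.42, the largest of all shared lower genes (limma, adjusted p 0.00147, called in all 10 fits). XTH15, an enzyme that remodels xyloglucan in the cell wall and a shade-induced gene (chromosome 4, 8137051 to 8138281), was at 289 and 293 FPKM in UBP13oe and 291 and 243 FPKM in the libraries labelled ubp12ubp13, against 676 and 801 FPKM in WT, 890 and 1109 FPKM in cry2-1 and 937 and 737 FPKM in CRY2oe. Here the values of both UBP lines overlapped, with a difference of 0.13 ± 0.151 (SE) between them (limma, adjusted p 0.492), and the shared call was lost in 1 of the 10 fits, the one without UBP13oe replicate 2.

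The regulators BZS1, a B-box protein of light and brassinosteroid signalling, and OZF2, a CCCH zinc finger protein, were lower in both lines. BZS1 was at 10.6 and 9.34 FPKM in UBP13oe and 8.42 and 8.21 FPKM in the libraries labelled ubp12ubp13, against 21.9 to 29.2 FPKM in the rest. OZF2 was at 19.4 and 18.1 FPKM in UBP13oe and 16.6 and 17.0 FPKM in the libraries labelled ubp12ubp13, against 41.0 to 49.95 FPKM in the rest. Both were called in all 10 fits, with common shifts of -1.19 and -1.15 (limma, adjusted p 0.00114 and 0.000326). AT1G21400, annotated as a thiamine diphosphate-binding protein, was at 76.8 and 68.1 FPKM in UBP13oe and 28.0 and 33.9 FPKM in the libraries labelled ubp12ubp13, against 192 to 221 FPKM in the rest. AT4G36850, a PQ-loop protein, went the other way in size: it was at 41.7 and 31.1 FPKM in UBP13oe and 64.9 and 59.9 FPKM in the libraries labelled ubp12ubp13, against 130 to 168 FPKM in the rest, with a difference of -0.78 ± 0.115 (SE) between the lines (limma, adjusted p 0.000722). SIS was at 29.7 to 34.9 FPKM in the UBP lines, against 64.8 to 175 FPKM in the rest, where cry2-1 was the highest. The other named lower genes were AT5G39520, AT5G14470, AT2G39980 and AT2G39855, with common shifts of -1.39, -1.36, -1.27 and -1.22 and calls in 7, 10, 6 and 7 of the 10 fits, and the loci of AT5G39520 and AT2G39980 each overlap 1 other gene.

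The light signalling list held 1 shared gene. LRB1, an adaptor of the ubiquitin ligases that remove CRY2 and phytochrome B in light, was at 55.0 FPKM in both replicates of UBP13oe and 44.6 and 47.5 FPKM in the libraries labelled ubp12ubp13, against 76.9 and 84.4 FPKM in WT, 68.1 and 71.8 FPKM in cry2-1 and 75.4 and 74.6 FPKM in CRY2oe. The groups were apart, with a common shift of -0.34 (limma, adjusted p 0.0244, called in 4 of the 10 fits). LRB1 was the 1 shared gene among 32 tested light signalling genes, against 0.672% of all genes shared lower. Its partner LRB2 was at 71.5 and 70.4 FPKM in UBP13oe and 55.2 and 53.3 FPKM in the libraries labelled ubp12ubp13, against 80.1 to 105 FPKM in the rest, and did not pass (adjusted p 0.341). SPA1, a partner of the ubiquitin ligase COP1, was at 32.7 to 33.7 FPKM in the UBP lines, against 21.4 to 28.4 FPKM in the rest, without passing (adjusted p 0.0904).

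The shared calls of the photosynthesis, tetrapyrrole and flavonoid lists were all higher ones. Of 50 tested nuclear photosynthesis genes 3 were shared higher and 36 pooled higher, against 0.922% and 32.7% of all genes, and the median difference was -0.01 in UBP13oe and 0.56 in the libraries labelled ubp12ubp13. RBCS1B, a small subunit of Rubisco, was at 891 and 968 FPKM in UBP13oe and 1546 and 1596 FPKM in the libraries labelled ubp12ubp13, against 265 to 651 FPKM in the rest, though its near-identical neighbours may take part of its reads. The antenna gene Lhca6 and GAPB, a Calvin cycle dehydrogenase, were the other shared ones. GAPB lost its call after rescaling, with nuclear genes alone and in 6 of the 10 fits, and Lhca6 in 3. Without UBP13oe replicate 2 the list held 0 shared genes, and without UBP13oe replicate 1 or CRY2oe replicate 1 it held 1. POR C, a light-dependent enzyme of chlorophyll synthesis, was at 55.3 and 54.6 FPKM in UBP13oe and 95.9 and 94.9 FPKM in the libraries labelled ubp12ubp13, against 34.4 to 37.7 FPKM in the rest, and was called in all 10 fits (limma, largest adjusted p 0.0157). POR C was the 1 shared gene among 27 tested tetrapyrrole genes, against 0.922% of all genes shared higher. The median difference of the tetrapyrrole genes was 0.09 in UBP13oe and 0.70 in the libraries labelled ubp12ubp13. PAL2, which opens the phenylpropanoid pathway, was at 46.7 and 49.6 FPKM in UBP13oe and 62.7 and 63.7 FPKM in the libraries labelled ubp12ubp13, against 18.4 to 28.8 FPKM in the rest, and it held in all 10 fits. PAL2 and the flavonol glycosyltransferase UGT78D1 were the 2 shared genes of 16 tested flavonoid genes, against 0.922% of all genes shared higher. UGT78D1 lost its call after rescaling and in 7 of the 10 fits, so that the list then held 1.

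The growth and hormone lists other than the jasmonate one held at most 2 shared genes each, against 0.922% of all genes shared higher and 0.672% shared lower. IAA2, an auxin response repressor, was at 162 to 171 FPKM in the UBP lines, against 201 to 269 FPKM in the rest, with a shared adjusted p of 0.0497 (limma), which held in 1 of the 10 fits and was lost after rescaling. XTH7, a relative of XTH15, went the opposite way and was at 90.8 to 99.5 FPKM in the UBP lines, against 42.9 to 72.2 FPKM in the rest, but it lost its call after rescaling and in 6 of the 10 fits (limma, adjusted p 0.0295). ABI5, a transcription factor of the abscisic acid response, was at 3.14 to 4.41 FPKM in the UBP lines, against 6.02 to 7.55 FPKM in the rest, and lost its call in all 10 fits. TEM1, a repressor of flowering, was at 48.4 to 56.5 FPKM in the UBP lines, against 70.2 to 93.5 FPKM in the rest, and held in 1 of the 10. Among 8 tested epidermis and wax genes LP1, a lipid transfer protein, was the 1 shared gene, at 540 to 567 FPKM in the UBP lines, against 246 to 397 FPKM in the rest. The list as a whole did not follow LP1. In it 2 genes were pooled higher and 2 lower, against 32.7% and 18.6% of all genes. Its median difference was 0.37 in UBP13oe and -0.44 in the libraries labelled ubp12ubp13. Its sum was 1357 to 1929 FPKM in the UBP lines, against 1137 to 2219 FPKM in the rest. The shade list held XTH15 as its only shared gene of 28 tested, with 5 genes apart below, against 4.31% of all genes, among them the growth genes IAA29, at 18.4 to 28.5 FPKM in the UBP lines, against 34.7 to 43.6 FPKM in the rest, and YUC8, an auxin synthesis gene, at 9.69 to 13.1 FPKM, against 13.7 to 17.5 FPKM.

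Of the 35 lists, 21 held no shared gene. Of 763 tested list genes 34 were shared, against 1.59% of all tested genes, and 284 shared genes stood in no list. By limma, 0 genes were shared among 28 tested deubiquitinase genes, 29 ubiquitin and proteasome genes and 42 cell cycle genes, and 0 of them passed at an unadjusted p under 0.05. None of 30 clock genes or 20 salicylate and immunity genes was shared either, and 1 of each passed unadjusted. Of 11 tested genes whose proteins UBP12 and UBP13 are reported to bind or act on, 0 were shared and 0 passed unadjusted, while 3 were pooled higher and 4 pooled lower, against 32.7% and 18.6% of all genes. Of all 19954 genes tested, 764 higher and 462 lower passed the shared rule unadjusted, and 1.59% were called shared. In lists of these sizes a count of 0 shared genes is near that share and is no result about their members. Of the 11 reported partners 1 lay apart below, against 4.31% of all genes. It was the clock gene GI, at 12.4 to 15.7 FPKM in the UBP lines, against 16.3 to 20.0 FPKM in the rest. The clock genes ZTL and TOC1 of the same list were at 35.2 to 38.6 and 48.9 to 76.6 FPKM in the UBP lines, against 27.6 to 53.7 and 51.6 to 105.5 FPKM in the rest, with overlapping groups. CRY1 was at 82.2 to 85.7 FPKM in the UBP lines, against 75.4 to 99.4 FPKM in the rest, with overlapping groups and a pooled difference of 0.01 ± 0.031 (SE). Of markers for other cell types, 8 of 10 xylem genes were pooled higher, against 32.7% of all genes, and their sum was 139 to 239 FPKM in the UBP lines, against 105 to 195 FPKM in the rest. The median difference of the xylem genes was 0.73 in UBP13oe and 0.07 in the libraries labelled ubp12ubp13, and 0 of them were shared. Of 9 endodermis genes 7 were pooled lower and 1 higher, against 18.6% and 32.7%, and their sum was 278 to 672 FPKM in the UBP lines, against 290 to 888 FPKM in the rest. The median difference of the endodermis genes was 0.4 in UBP13oe and -0.97 in the libraries labelled ubp12ubp13. The lines thus went opposite ways, and 0 of these genes were shared. Both sums overlapped between the groups.

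Averaging the 2 lines gave far more calls than the shared rule. The pooled limma contrast, the mean of UBP13oe and ubp12ubp13 minus the mean of WT, cry2-1 and CRY2oe, called 6528 genes higher (32.7%) and 3717 lower (18.6%) of 19954. After rescaling by the median ratio this split was 5039 higher and 5065 lower, and the genes apart were 1062 above and 1432 below. Of the 10245 pooled calls, 2495 had all 4 libraries beyond the 6 others, and 6525 (63.7%) were also called between the 2 lines. The pooled fit takes its error from the replicates within each genotype. With 2 classes of libraries and no genotype means, so that the spread among genotypes counts as error, limma called 1082 genes higher (5.42%) and 566 lower (2.84%) of 19957, and 312 of the 318 shared genes were among them. A pooled call can thus come from 1 line or from part of the rest.

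Named examples show a pooled difference that lay in part of the rest or mostly in 1 line, and none shows a change in 1 line alone. AT1G04420 and c-NAD-MDH1, a cytosolic malate dehydrogenase, are the genes next to CRY2 on chromosome 1. c-NAD-MDH1 was at 469 FPKM in both replicates of UBP13oe and 364 and 358 FPKM in the libraries labelled ubp12ubp13, against 435 and 443 FPKM in WT, 0 in cry2-1, and 0.114 and 0.0564 FPKM in CRY2oe. Its pooled difference of 5.72 ± 0.027 (SE) came with WT at the level of the UBP lines, and it was -0.09 with WT alone as the rest. AT1G04420 was at 35.6 to 59.2 FPKM in the UBP lines, against 32.0 and 30.3 FPKM in WT and 0 in cry2-1 and CRY2oe. HIS1-3, a linker histone of drought response, was at 62.4 and 66.6 FPKM in UBP13oe and 8.42 and 11.9 FPKM in the libraries labelled ubp12ubp13, against 84.2 to 235 FPKM in the rest. Most of its pooled difference of -2.42 ± 0.081 (SE) lay in 1 line, with -1.14 in UBP13oe and -3.71 in the libraries labelled ubp12ubp13. Beside DIN2, the other genes named as pooled, called between the lines and not shared were AT2G16367, AT1G65490, AT1G19530 and AT2G05510. Their pooled differences were 3.45, 2.67, -2.65 and -1.97. In AT2G16367 and AT1G19530 both lines moved the same way and all UBP-line libraries lay beyond the rest, as in AT1G04420, HIS1-3 and DIN2. The common shifts of AT2G16367 and AT1G19530 were 1.72 and -1.09, and both missed the shared call (limma, adjusted p 0.291 and 0.0768).

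The choice of the rest moved the shared counts. With WT alone as the rest 1785 genes were shared higher and 667 lower, and 6661 and 2263 lay apart. Without cry2-1 in the rest the shared counts were 470 higher and 267 lower, without CRY2oe 342 and 183, and without WT 321 and 271. Each of these asks for fewer differences than the 6 of the rule.

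Promoter windows of the shared genes were searched on both strands for 10 motifs, in the 300 bases before the RefSeq start, and the shares are descriptions with no test. The G-box (CACGTG) was in 15.7% of the windows of shared lower genes and 8.70% of those of shared higher genes, against 8.07% of 19777 tested genes. The ABRE core (ACGTGTC) was in 9.70% of the lower and 3.26% of the higher ones, against 4.66%. These motifs share letters, and 8 of the 134 lower genes (5.97%) held both, while 26 (19.4%) held at least 1, against 2.92% and 9.81% of the tested genes. The evening element (AAATATCT) was in 6.72% of the lower and 1.63% of the higher ones, against 5.70%, and the TATA box (TATAAA) in 59.0% and 47.8%, against 51.8%. The PIF-binding E-box (CACATG) was in 11.2% and 15.2%, against 13.1%, the CCA1-binding site (AAAAATCT) in 8.21% and 5.98%, against 8.0%, and the telo-box (AAACCCTA) in 1.49% and 2.72%, against 4.29%. Site II (TGGGCC) was in 14.2% and 14.1%, against 17.2%, the W-box (TTGACC) in 12.7% and 13.6%, against 13.9%, and the heat shock element (GAANNTTC) in 8.96% and 12.0%, against 11.1%. Of the 14 named lower genes 5 held a G-box or an ABRE core in these windows.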

How the data were processed

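Poly(A) RNA of whole seedlings was made into directional libraries, per the labels' protocols. Per the submitters' processing notes the authors used STAR and Cufflinks 2.1.1 with the TAIR10 genome, and they deposited 1 table of FPKM per library. No source used here says whether counting took account of strand, so overlapping and antisense genes cannot be told apart, and related genes may share fragments.

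The deposited FPKM of 33557 genes were joined by gene, and 15 entries with a failed status, at 10 loci, were set missing. The 19957 genes that reached 1 FPKM in 2 or more libraries were tested on log2(FPKM + 1) with limma 3.58.1 in R 4.3.3, using 1 mean per genotype, a variance trend and no replicate block, with 5 residual and 3.15 prior degrees of freedom. Adjusted p-values are Benjamini-Hochberg over all tested genes, two-sided, called at 0.05. FPKM are not counts, so no count model was used. The fits were run on simulated data with no differences among WT, cry2-1 and CRY2oe. That run was a check of the code and does not give the error rate in these data. Starts in the files were converted to count from 1, and the RefSeq reference TAIR10.1 gave the same start and end for 10573 genes.

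Depth was read from the whole-fragment steps of low FPKM of 2919 single-exon genes, with a rule for choosing the step that was set after values were seen, and it enters no test. A fragment count of 3, taken as the floor, corresponds to 0.097 to 0.192 FPKM for a gene of 1 kilobase, which covers counting error only.

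The named genes are UBP12, UBP13, CRY2 and CRY1, the 14 higher and 14 lower shared genes with the largest common shift among those with a mean of 5 FPKM or more on the higher side, a locus of 300 bp or more and no missing value, up to 3 shared genes per list, and 4 pooled genes per direction that were called between the lines and not shared. Other genes of the lists were named for their roles after their values were seen. The comparison, the 35 gene lists (880 of 939 symbols matched, with 13 others left out because the symbol belongs to another gene) and the rules were chosen with earlier results of these data known. Alternatives covered the pseudocount, the filter, the scaling, nuclear genes alone, the replicate block, a 2-class fit, the variance trend, failed entries as 0, the make-up of the rest and each library left out. Python 3.11.15, numpy 2.4.6, pandas 2.3.3 and matplotlib 3.10.9 were used.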

Additional observations from a re-analysis of the deposited data

Results flagged for a closer look

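Each side of a named gene mixes genotypes, which Dixon's criterion does not take into account, so its hits are a description and not an excess over chance. In 4 of the named genes 1 library stood far from the others of its side by this criterion, which chance meets in about 1 in 20 groups. These were AT4G15620 in WT replicate 2, the highest of the rest at 25.1 FPKM, XTH15 in ubp12ubp13 replicate 2, the lowest of the UBP lines at 243.0 FPKM, IAA2 in UBP13oe replicate 2, the lowest of the UBP lines at 162.0 FPKM, and TEM1 in UBP13oe replicate 1, the highest of the UBP lines at 56.5 FPKM.

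The effect against the rest differed between UBP13oe and the libraries labelled ubp12ubp13 in 35 named genes, by limma's test of the difference itself. The same test called 52.9% of all tested genes, and some named genes were chosen by it, so the count is a description. Values are UBP13oe minus ubp12ubp13 on the log2(FPKM + 1) scale. Of the genes of the lines, UBP13 was at 1.46 and CRY2 at 0.16, and UBP12 at -3.1 with only 1 value in the libraries labelled ubp12ubp13, where the other is a failed estimate. Among shared higher genes with the largest shifts the difference was -1.81 for IRT1, -2.39 for AT2G22942, -0.85 for ESM1, -2.2 for FRO2 and -1.6 for AT4G04223, so UBP13oe was the lower line in each. Among shared lower genes it was 1.69 for AT4G25580, 1.69 for BCAT-2, 1.21 for AT1G21400, 1.26 for AT5G39520, 0.95 for AT5G14470, 1.0 for NAP, 0.46 for AT2G39855 and 3.75 for THA1, while AT4G36850, at -0.78, was the 1 among these that was lower in UBP13oe.

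Among shared genes named from the lists the difference was 0.25 for LRB1, -0.39 for PAL2, -0.48 for UGT78D1, -0.76 for RBCS1B, -0.85 for Lhca6, -0.71 for GAPB, -0.79 for POR C, -0.28 for ABI5, -0.5 for MYB28 and -0.62 for bHLH38. Among pooled genes that were not shared it was 0.38 for c-NAD-MDH1, -0.63 for AT1G04420, -2.56 for AT2G16367, -2.0 for AT1G65490, 2.56 for AT1G19530, 2.57 for HIS1-3, 2.41 for DIN2 and -1.59 for AT2G05510. The last group was chosen for a called difference between the lines, so its values are a description. The named genes without a called difference include COPT2, TGG2, FRO4, FRO5, XTH15, BZS1, OZF2 and SIS.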

How the results depend on the processing

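The pooled counts of 6528 higher and 3717 lower genes became 1082 and 566 with 2 classes and no genotype means, and ranged over 5276 to 6442 higher and 3088 to 3788 lower with 1 library left out. Shared counts of 184 higher and 134 lower became 41 and 39 with no filter, 106 and 87 with no variance trend, 91 higher after median-of-ratios rescaling, 211 lower with nuclear genes alone, 321 and 271 with the rest without WT, 470 and 267 without cry2-1, 342 higher without CRY2oe, and 1785 and 667 with WT alone as the rest; with 1 library left out they ranged from 16 to 146 higher and 33 to 142 lower. Genes apart, 1646 above and 859 below, became 1062 and 1432 after rescaling, 1472 below without WT, 3436 and 1321 without cry2-1, 2562 above without CRY2oe and 6661 and 2263 with WT alone, and ranged over 1761 to 2172 above and 909 to 1141 below with 1 library left out. Leaving out a library or part of the rest asks for fewer comparisons of the genes apart. The cause of the other moves was not tested. A pseudocount of 0.1, a mean of 5 FPKM or more and failed entries as 0 kept these counts within 1.5 times.

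Directions reversed in 4 named genes. The pooled difference of UBP12 became -0.37 with failed entries as 0. That of CRY2 became -2.86 with the rest without cry2-1 and -0.33 with WT alone, and that of c-NAD-MDH1 -0.09 with WT alone. That of CRY1, which was not called, became -0.06 after rescaling, -0.02 with nuclear genes alone, -0.02 without cry2-1, -0.06 without CRY2oe, -0.18 with WT alone, and lay between -0.01, without WT replicate 1 or UBP13oe replicate 1, and 0.03 with 1 library left out. Of the alternatives for common shifts of named genes 792 kept the call and 192 lost it. Replicate numbers paired no samples, with correlations of deviations of -0.0884 to 0.146, and the replicate block gave 160 shared higher and 118 lower genes, 263 of them among the 318, and 6403 pooled higher and 3701 lower.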

Other observations

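After the values of BCAT-2, AT1G21400 and THA1 had been seen, 21 genes of amino acid breakdown were listed, and their counts are a description with no test. Of these, 20 were pooled lower by limma and 0 higher, against 18.6% and 32.7% of all genes. Of the 21, 11 were shared lower, against 0.672%, and 18 had all 4 UBP-line libraries below the rest, against 4.31%, with a median pooled difference of -1.04 on the log2(FPKM + 1) scale. MCCA and MCCB, the subunits of methylcrotonyl-CoA carboxylase in leucine breakdown, averaged 163 ± 2.55 and 94.5 ± 3.28 FPKM in UBP13oe and 51.6 ± 2.18 and 41.1 ± 0.938 FPKM in the libraries labelled ubp12ubp13 (SD, n = 2 each), against 252 to 312 and 169 to 196 FPKM in the rest. ETFQO, which passes electrons from this breakdown to the respiratory chain, averaged 30.0 ± 1.29 FPKM in UBP13oe and 19.0 ± 0.797 FPKM in the libraries labelled ubp12ubp13 (SD, n = 2 each), against 43.4 to 49.4 FPKM in the rest. The tyrosine breakdown genes PDS1 and HGO averaged 89.7 ± 7.12 and 76.1 ± 1.39 FPKM in UBP13oe and 73.4 ± 0.965 and 49.6 ± 1.70 FPKM in the libraries labelled ubp12ubp13 (SD, n = 2 each), against 181 to 257 and 132 to 237 FPKM in the rest. AT5G09300 was the 1 gene not called, with a pooled difference of 0.05 ± 0.054 (SE). These counts include the 3 genes seen first. Without them 17 of 18 were pooled lower, 8 shared lower and 15 below the rest, with a median of -0.97. The 18 still hold DIN4, also called in the senescence and sugar starvation list, so the smaller count is no independent result. With 2 classes and no genotype means 13 of the 21 were pooled lower. The shared count was 7 without UBP13oe replicate 2 and 13 after rescaling. Of the shared genes among the 21, BCAT-2, DIN4 and THA1 also belong to the senescence and sugar starvation list.

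Of the lists not described above, 20 heat shock and chaperone genes had 12 pooled higher, 2 pooled lower and 4 apart above, against 32.7%, 18.6% and 8.25% of all genes, with a median of 0.26, and 2 of them passed the shared rule unadjusted. Of 32 brassinosteroid and gibberellin genes 4 were pooled higher and 16 lower, against 32.7% and 18.6%, with a median of -0.12. That median was 0.0 in UBP13oe and -0.3 in the libraries labelled ubp12ubp13. By limma 0 genes of either list were shared, against 1.59% of all genes.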
